A study of Mus musculus with 18 samples.

Results

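Metallothioneins and the zinc carriers around them were described in the RNA-seq of mouse peritoneal macrophages as 5 genes, of 13598 genes that had a value. They were Mt1, Mt2, Mtf1, Slc30a1 and Slc39a14, picked by name with earlier results of these data known, among them their levels and their differences between the groups. Their own differences in level are therefore given as a description, without p-values. Whether a gene passed the threshold of the study is set against the share of all genes that did. All 5 were among the 9707 genes that reached at least 1 FPKM (fragments per kilobase of transcript, scaled to the fragments of the library) in at least 3 libraries.

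Metallothioneins are small cysteine-rich proteins that hold zinc and copper ions in the cytosol. Zinc that rises in the cytosol binds the transcription factor MTF1, which then occupies metal response elements in the promoters of Mt1, Mt2 and Slc30a1. Slc30a1 encodes ZnT1, which exports zinc across the plasma membrane, and Slc39a14 encodes ZIP14, which imports zinc, iron and manganese. Macrophages are known to redistribute zinc during inflammation, and metallothioneins and ZIP14 are also induced by inflammatory cytokines and glucocorticoids.

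The cells came from the peritoneal cavity of mice after thioglycolate, an irritant that recruits macrophages, so control and LPS groups share that treatment. The mice were TLR4-WT, or carried a lysine-to-arginine exchange in the TIR domain of TLR4 (TLR4-K730R or TLR4-K810R) made by CRISPR/Cas9 on the C57BL/6 background, which every cell of the body carries. Each genotype was left as control or received LPS, the bacterial ligand of TLR4, at 100 ng/ml and was harvested after 6 h. The 6 groups had 3 libraries each. The age of the mice, and whether the libraries of a group came from separate animals, were not given in the sources used here, so every p-value measures only the spread between these libraries. The deposited files hold no read counts, and the depth behind each value is unknown.

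Of the 6 macrophage markers, 5 had a value in the libraries, and Itgam had none. The marker sum ranged from 11587 to 14738 FPKM in control and from 6877 to 9811 FPKM with LPS, with Lyz2 as its most abundant gene. Of the 6 neutrophil markers, Ly6g, Ngp and Cxcr2 stayed under 1 FPKM, and Mmp8 was the most abundant with 4.97 to 20.6 FPKM. Camp and Retnlg reached 6.38 and 2.67 FPKM. The neutrophil sums in control were 11.7 to 15.1 FPKM for TLR4-WT, 11.6 to 12.8 for TLR4-K730R and 17.5 to 20.7 for TLR4-K810R. Markers of other peritoneal cells were present at low levels and were unequal between the genotypes. Control sums of the 5 mast cell markers were highest in TLR4-WT, at 4.70 to 5.25 FPKM. They were 0.494 to 2.58 FPKM for TLR4-K730R and 0.797 to 2.64 FPKM for TLR4-K810R. The 10 markers of intestinal epithelium, of which Cdx2 had no value, summed to 3.94 to 4.13 FPKM in TLR4-WT control. Their control sums were 16.1 to 49.2 FPKM for TLR4-K730R and 26.7 to 78.9 FPKM for TLR4-K810R. The 8 markers of mesothelium and fibroblasts summed to 32.0 to 49.1, 59.2 to 68.0 and 116 to 278 FPKM in the same groups. With LPS the epithelial sums were 2.18 to 18.3 FPKM and the mesothelium and fibroblast sums 43.2 to 143 FPKM over the 3 genotypes. Library 3 of TLR4-K810R control had the highest value of both sums. In the epithelial list Lgals4 and Krt8 reached the highest values, at 32.1 and 21.3 FPKM, while Epcam reached 2.36 FPKM. In the other list Col1a2 and Col1a1 did, at 92.4 and 77.6 FPKM, while the mesothelial marker Msln reached 1.19 FPKM. The sums do not settle which cell types were present.

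Mt2 (ENSMUSG00000031762) lies on the plus strand of chromosome 8, at chr8:94172664-94173568 of GRCm38, and Mt1 (ENSMUSG00000031765) follows on the same strand at chr8:94179082-94180327, 5513 bases further on. The promoters of the metallothioneins and of Slc30a1 (ENSMUSG00000037434, plus strand, chr1:191906767-191913247) are shown here because these are the genes on which MTF1 is known to act. RefSeq promoters of GRCm38.p6 were found for 4 of the 5 genes, and the 250 bases before the RefSeq start are printed 5′ to 3′ on the strand of the gene, with the core of the metal response element (TGCACNC or TGCGCNC, on either strand) in capitals. The windows are chr8:94172368-94172617 for Mt2, chr8:94178839-94179088 for Mt1 and chr1:191906531-191906780 for Slc30a1.
Mt2: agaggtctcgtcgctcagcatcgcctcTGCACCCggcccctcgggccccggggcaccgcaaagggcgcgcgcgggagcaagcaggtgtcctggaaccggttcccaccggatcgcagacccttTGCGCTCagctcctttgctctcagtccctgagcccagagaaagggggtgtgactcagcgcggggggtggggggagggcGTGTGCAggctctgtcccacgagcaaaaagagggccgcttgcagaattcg
Mt1: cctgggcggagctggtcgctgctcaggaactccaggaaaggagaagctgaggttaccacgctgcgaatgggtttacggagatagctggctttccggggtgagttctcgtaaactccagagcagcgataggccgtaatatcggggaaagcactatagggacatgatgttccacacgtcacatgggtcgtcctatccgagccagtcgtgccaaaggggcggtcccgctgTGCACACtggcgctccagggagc
Slc30a1: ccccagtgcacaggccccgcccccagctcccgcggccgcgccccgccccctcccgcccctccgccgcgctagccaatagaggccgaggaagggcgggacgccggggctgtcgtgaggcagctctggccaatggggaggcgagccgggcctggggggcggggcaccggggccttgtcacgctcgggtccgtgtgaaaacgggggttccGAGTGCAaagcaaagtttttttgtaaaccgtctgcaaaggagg
The Mt2 window held 3 cores, and at least 3 were found in 1.26% of the 32851 promoter windows of this length. The Mt1 and Slc30a1 windows held 1 core each, where 21.4% of all windows held at least 1, and that of Mtf1 held none. When the 50 bases after the start were included, the counts were 4 cores for Mt2, 3 for Mt1 and 2 for Slc30a1, and at least 2 cores were found in 7.11% of all windows of 300 bases. Other start sites were not searched, and the letters do not show that MTF1 was bound there.

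Mt2 had the widest fold range between group means of the 5 genes, while Mt1 had the widest range in FPKM. In TLR4-WT control it stood at 9.75, 9.62 and 10.3 FPKM in the 3 libraries, and with LPS at 114, 98.7 and 74.4 FPKM. All LPS libraries lay far above all control libraries, and the difference was 3.13 (SE 0.26) on the log2(FPKM + 1) scale. In TLR4-K730R the control libraries had 18.5, 17.7 and 17.5 FPKM and the LPS libraries 53.8, 54.2 and 103 FPKM. The difference there was 1.85 (SE 0.26), with library 3 of the LPS group apart from its group. Without that library the difference was 1.54.

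In TLR4-K810R, Mt2 had the highest control level and the narrowest step to LPS. Its control libraries stood at 27.4, 22.9 and 49.2 FPKM and its LPS libraries at 57.4, 58.7 and 54.3 FPKM. The groups did not overlap, but the highest control library lay close to the lowest LPS library, and the difference was 0.83 (SE 0.26). Library 3, at 49.2 FPKM, also had the highest epithelial sum and the highest mesothelium and fibroblast sum. Without that library the difference was 1.15 (SE 0.23). The part of the cells behind these sums in the Mt2 level was not tested.

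**Figure D1:**
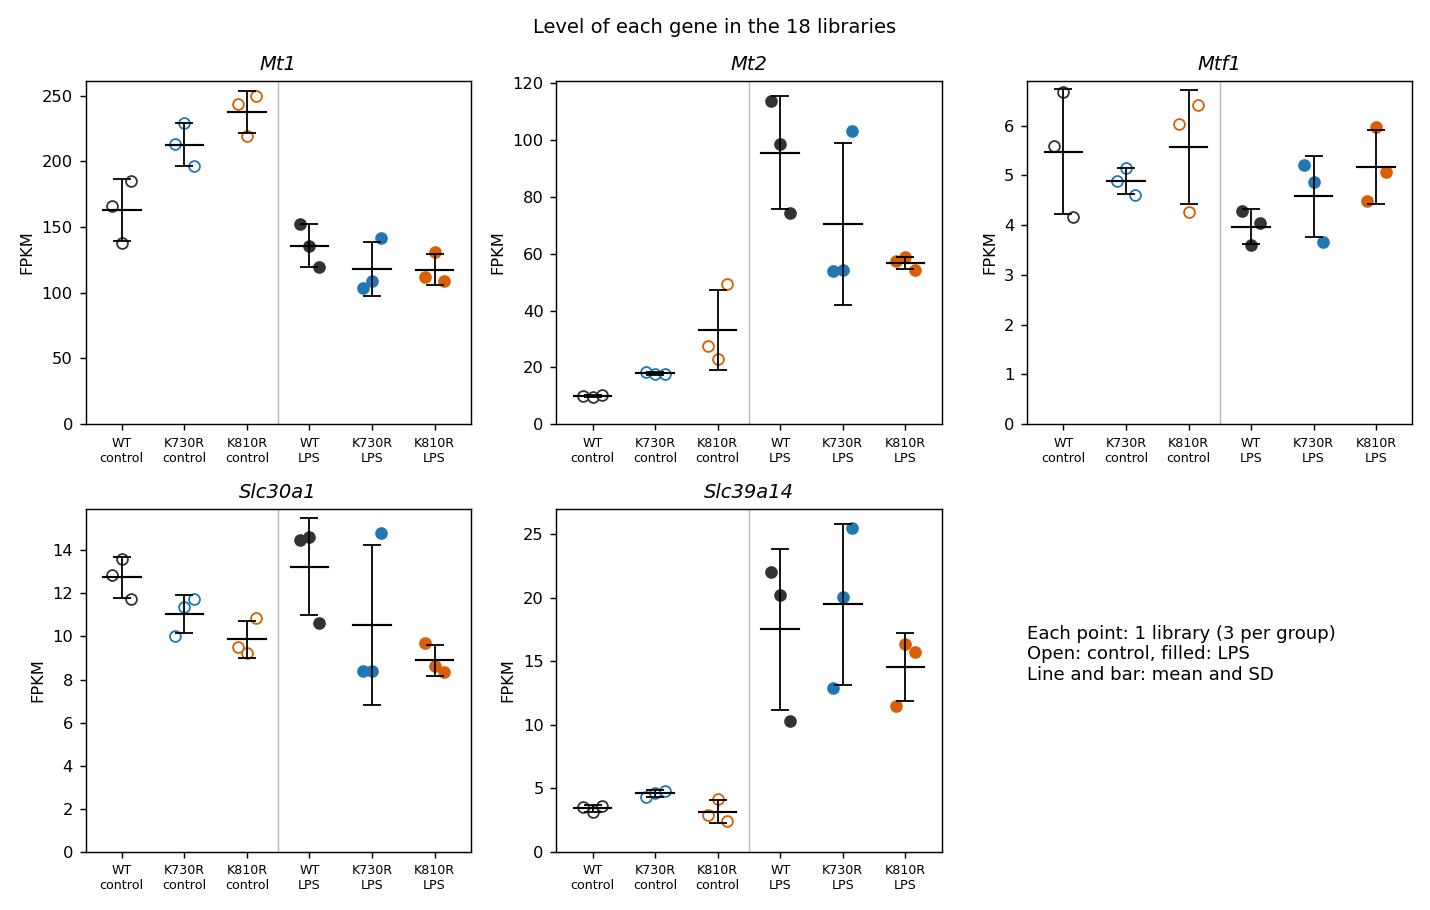
Level of each gene (FPKM, linear axis) in the 18 libraries, by genotype and treatment, with control groups open and LPS groups filled; each point is 1 library, and the line and bar are the mean and SD of 3 libraries. The Mt2 means are 9.90, 17.9 and 33.2 FPKM in control and 95.7, 70.4 and 56.8 FPKM with LPS, where 1 TLR4-K730R library stands at 103 FPKM and the other 2 below all TLR4-K810R libraries, while Mtf1 stays between 3.59 and 6.68 FPKM.

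Ordered by the mean, the control level of Mt2 was lowest in TLR4-WT, at 9.90 ± 0.37 FPKM (SD, n = 3). TLR4-K730R followed with 17.9 ± 0.53 FPKM, and TLR4-K810R was highest with 33.2 ± 14.0 FPKM. The libraries of these neighbours did not overlap. The means with LPS followed the opposite order, from TLR4-WT at 95.7 ± 19.9 FPKM through TLR4-K730R at 70.4 ± 28.5 to TLR4-K810R at 56.8 ± 2.22. There the TLR4-K730R libraries overlapped with both neighbours, while each TLR4-K810R library lay below each TLR4-WT library. The place of TLR4-K730R rested on its library 3, since the other 2 lay below every TLR4-K810R library and the medians were 54.2 FPKM for TLR4-K730R and 57.4 FPKM for TLR4-K810R. Relative to TLR4-WT, Mt2 differed in TLR4-K810R by 1.57 (SE 0.26) in control and by -0.72 (SE 0.26) with LPS on the log2 scale. The LPS response, which is the LPS minus control difference, was smaller than that of TLR4-WT, with differences of -1.28 (SE 0.36) for TLR4-K730R and -2.30 (SE 0.36) for TLR4-K810R. The responses in the mutants share the TLR4-WT libraries as reference and are not independent of each other.

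Mt1, the neighbouring gene, did not follow Mt2 into the LPS groups. In TLR4-WT it had 166, 138 and 185 FPKM in control and 152, 135 and 120 FPKM with LPS, with overlapping groups and a log2 difference of -0.26 (SE 0.14). In TLR4-K730R it had 213, 229 and 196 FPKM in control and 104, 109 and 141 FPKM with LPS, a difference of -0.85 (SE 0.14). In TLR4-K810R it had 244, 220 and 250 FPKM in control and 112, 131 and 109 FPKM with LPS, a difference of -1.01 (SE 0.14). In both mutants every LPS library lay below every control library. Under median-of-ratios scaling, which centres the libraries on their typical gene, the differences were 0.07, -0.44 and -0.74, so the sign in TLR4-WT turned and the order of the genotypes remained.

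The control levels of Mt1 were ordered as those of Mt2, from TLR4-WT at 163 ± 23.9 FPKM through TLR4-K730R at 213 ± 16.3 to TLR4-K810R at 238 ± 15.9. Both mutants lay above TLR4-WT in every library and overlapped with each other. The epithelial sums and the mesothelium and fibroblast sums were also above those of TLR4-WT in every control library of both mutants, and their part was not tested. In bulk RNA, more cells of a type and more RNA per cell cannot be told apart. With LPS the 3 genotypes overlapped, at 136 ± 16.2, 118 ± 20.3 and 117 ± 11.8 FPKM.

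Mt1 and Mt2 are close relatives in sequence, and how reads that fit both were assigned is not given in the sources used here. The balance of the metallothioneins, as deposited, shifted from Mt1 towards Mt2 with LPS. The ratio of Mt1 to Mt2, both as FPKM, was 16.4 ± 1.89 in TLR4-WT control and 1.44 ± 0.15 with LPS. For TLR4-K730R the control and LPS ratios were 11.9 ± 0.93 and 1.77 ± 0.35, and for TLR4-K810R they were 7.85 ± 2.42 and 2.07 ± 0.15. Mt2 made up 5.79% of the summed metallothionein FPKM in TLR4-WT control and 41.1% with LPS, against 12.0% and 32.7% in TLR4-K810R. The sum of Mt1 and Mt2 was 173 ± 24.2 FPKM in TLR4-WT control and 232 ± 36.0 with LPS, and the groups overlapped. In TLR4-K810R it went the other way, from 271 ± 28.1 to 174 ± 13.7 FPKM, without overlap. For TLR4-K730R the sums were 231 ± 16.4 and 189 ± 48.7 FPKM, and the overlap rested on library 3 of the LPS group, at 245 FPKM, while the other LPS libraries had 158 and 163 FPKM against at least 214 in control.

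**Figure D2:**
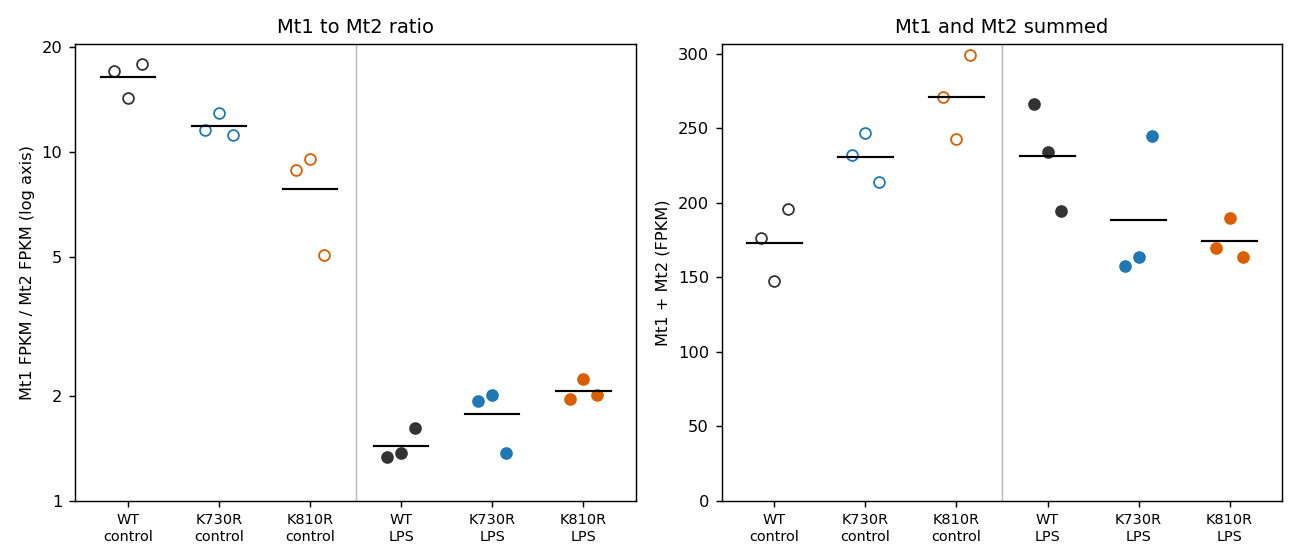
Ratio of Mt1 to Mt2 (left, log axis) and their sum in FPKM (right, linear axis) in the 18 libraries by genotype and treatment; each point is 1 library and each line the mean of 3. The mean ratio lies between 7.85 and 16.4 in the control groups and between 1.44 and 2.07 in the LPS groups.

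Mtf1 (ENSMUSG00000028890, plus strand, chr4:124802104-124849800), the zinc-sensing factor, varied little. Its levels ran from 3.59 to 6.68 FPKM over the 18 libraries, and the group means from 3.97 ± 0.35 in TLR4-WT with LPS to 5.57 ± 1.15 FPKM in TLR4-K810R control. Control and LPS libraries overlapped in each genotype, with log2 differences of -0.37, -0.09 and -0.08 (SE 0.17 each) for TLR4-WT, TLR4-K730R and TLR4-K810R. Under median-of-ratios scaling these were -0.09, 0.25 and 0.15, so no direction can be given in the mutants. With LPS the TLR4-K810R libraries, at 4.48, 5.97 and 5.06 FPKM, lay above the TLR4-WT libraries at 4.28, 3.59 and 4.03 FPKM (log2 difference 0.31, SE 0.17). With last-exon sums alone these groups overlapped, and the difference was 0.04.

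Slc30a1, the ZnT1 exporter and a classical MTF1 target, did not follow Mt2 across the groups. In TLR4-WT it had 12.9, 13.6 and 11.7 FPKM in control and 14.5, 14.6 and 10.6 FPKM with LPS. In TLR4-K730R it had 10.02, 11.4 and 11.7 FPKM in control and 8.38, 8.41 and 14.8 FPKM with LPS. In TLR4-K810R it had 9.52, 9.24 and 10.9 FPKM in control and 9.71, 8.61 and 8.35 FPKM with LPS. Control and LPS libraries overlapped in all 3 genotypes, and the log2 differences lay between -0.14 and 0.04 (SE 0.18 each). In TLR4-K730R the overlap rested on library 3 of the LPS group, without which both LPS libraries lay below all control libraries and the difference went from -0.11 to -0.36 (SE 0.14). Under median-of-ratios scaling they were 0.35, 0.27 and 0.11, so their sign depends on the scaling in both mutants. The TLR4-K810R libraries lay below the TLR4-WT libraries in control (-0.34, SE 0.18) and with LPS (-0.52, SE 0.18). In control the TLR4-K730R libraries lay below those of TLR4-WT as well (-0.19, SE 0.18). The margin there was narrow, with at most 11.72 FPKM against at least 11.74 FPKM.

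Slc39a14 (ENSMUSG00000022094, minus strand, chr14:70303469-70351425), the ZIP14 importer, was higher with LPS in every genotype, with no overlap. In TLR4-WT it had 3.51, 3.11 and 3.61 FPKM in control and 22.01, 20.2 and 10.3 FPKM with LPS. In TLR4-K730R it had 4.33, 4.64 and 4.80 FPKM in control and 12.9, 20.1 and 25.5 FPKM with LPS. In TLR4-K810R it had 2.88, 4.18 and 2.39 FPKM in control and 11.4, 16.3 and 15.8 FPKM with LPS. The log2 differences were 2.004, 1.83 and 1.91 (SE 0.26 each), and the LPS groups of the 3 genotypes overlapped. Unlike Mt2, the estimated response in TLR4-K810R lay close to that of TLR4-WT, with a difference of -0.09 (SE 0.37), although it was -0.76 with last-exon sums alone.

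**Figure D3:**
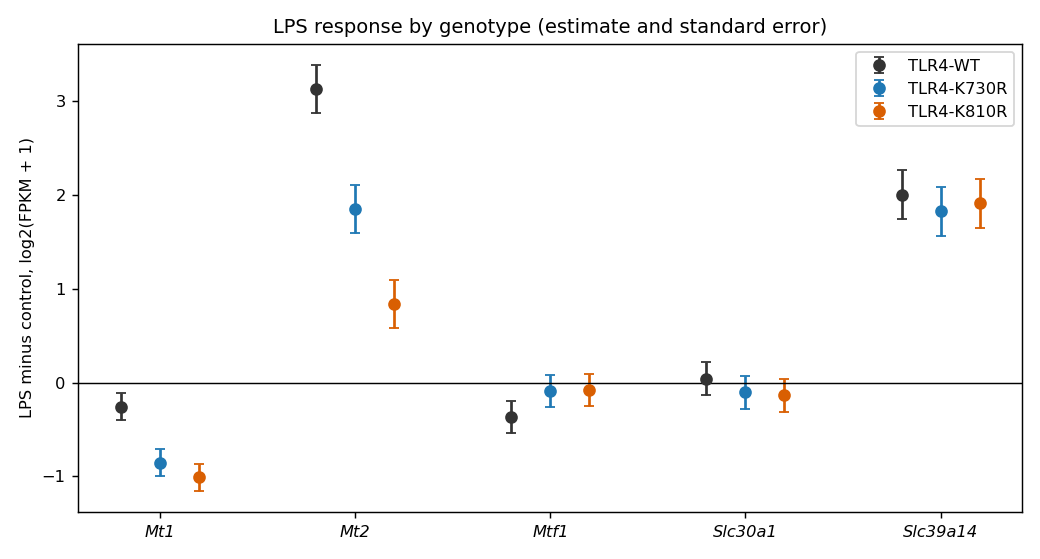
LPS minus control difference of each gene on the log2(FPKM + 1) scale in TLR4-WT, TLR4-K730R and TLR4-K810R; points are the limma estimates and bars their standard errors (3 libraries a group). Mt2 steps down from 3.13 to 1.85 and 0.83, whereas Slc39a14 lies between 1.83 and 2.004 in all 3.

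Counted by the threshold of the study (adjusted p below 0.01, here from limma over all genes tested), Mt2 and Slc39a14 passed for LPS in TLR4-WT, where 34.3% of all genes tested did. Mt1, Mt2 and Slc39a14 passed in TLR4-K730R, where 35.8% did, and Mt1 and Slc39a14 in TLR4-K810R, where 28.8% did. Between genotypes in control, none of the 5 passed for TLR4-K730R, where 0.268% of all genes did, and Mt2 passed for TLR4-K810R, where 1.58% did. With LPS none of the 5 passed for TLR4-K730R or TLR4-K810R, where 0% and 0.134% of all genes did. The paper reports more genes than passed here for both mutants with LPS, from a test that it does not name. The 0% for TLR4-K730R rests on limma alone, and 746 genes had an unadjusted p under 0.05 in that comparison. For the difference of the LPS responses, none passed in TLR4-K730R (0.0412% of all genes) and Mt2 passed in TLR4-K810R (0.124% of all genes). Since the genes were chosen with these values known, nothing is read from their count.

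The Mt2 calls that involve TLR4-K810R depended on single libraries. The control difference no longer passed without library 3 of TLR4-K810R control, at 1.26 (SE 0.23), nor without any of the 3 TLR4-WT control libraries, and 0.515 to 0.762% of all genes passed in these 4 fits. The difference of the responses no longer passed without library 3 of TLR4-K810R control either, at -1.98 (SE 0.31), where 0.0927% of all genes did. It was -2.34 (SE 0.37) under median-of-ratios scaling, where it did not pass and 0.114% of all genes did. The LPS difference of Mt2 within TLR4-K810R passed without that library and under median-of-ratios scaling, and in each of these fits 24.1% of all genes did. Under the same scaling Mt1 no longer passed in TLR4-K730R, where 29.0% did.

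The patterns of the genes over the 18 libraries are given as a description, since libraries of a group share their treatment and genotype. Mt2 and Slc39a14 had a Pearson r of 0.83 on the log2 scale, Mt2 and Mt1 one of -0.49, and Mt2 and Slc30a1 one of -0.02. Once each library was set against the mean of its own group, the values were 0.30 for Slc39a14, 0.68 for Mt1 and 0.79 for Slc30a1. Without library 3 of TLR4-K730R with LPS, these were 0.03, 0.51 and 0.61 over 17 libraries. In TLR4-WT control and TLR4-K730R control, by contrast, the library highest in Mt2 was the lowest in Slc30a1. Library 3 of TLR4-K730R with LPS was the highest of its group for Mt1, Mt2, Slc30a1 and Slc39a14.

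The genes most like Mt2 over the 18 libraries were Tagap (Pearson r 0.97), Spsb1 (0.96), Ccl2 (0.96), Gcnt2 (0.95) and Inpp5b (0.94), of 9704 genes compared. Ccl2, a chemokine that draws monocytes, had control levels of 16.9 ± 2.37, 24.0 ± 5.14 and 33.7 ± 12.9 FPKM from TLR4-WT over TLR4-K730R to TLR4-K810R. With LPS it had 253 ± 36.6, 148 ± 82.5 and 168 ± 24.8 FPKM in the same order. Spsb1, which encodes an adaptor of a ubiquitin ligase, had 0.760 ± 0.038, 1.64 ± 0.24 and 3.36 ± 1.71 FPKM in control, and 5.27 ± 0.75, 4.07 ± 0.998 and 4.85 ± 0.53 FPKM with LPS. Genes chosen for their likeness to Mt2 over these libraries largely share its order of group means by that choice. By Spearman's rho, Tagap and Ccl2 were again among the 5 genes nearest to Mt2.

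The genes most like Slc30a1 were Nectin4 (0.86), Prss46 (0.83), Mill2 (0.82), Folr2 (0.82) and Plcl2 (0.81). Folr2, a folate receptor of tissue macrophages, had control levels of 86.7 ± 8.58, 59.5 ± 4.87 and 44.1 ± 2.73 FPKM in that order. With LPS it had 55.2 ± 18.4, 44.6 ± 21.6 and 32.9 ± 4.27 FPKM in the same order. Mt1 and Slc39a14 had r of 0.18 and 0.01 with Slc30a1.

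The genes of the lists that follow were also chosen with earlier results of these data known, so their limma p-values are given as a description. The other zinc transporters passed for LPS about as often as all genes did. Over all genes tested, 10.4%, 9.32% and 9.08% passed as higher with LPS and 23.9%, 26.5% and 19.7% as lower in TLR4-WT, TLR4-K730R and TLR4-K810R, and each list count for LPS that follows stands against these shares. Under median-of-ratios scaling the shares were 15.5%, 15.5% and 12.4% higher and 14.2%, 13.5% and 11.7% lower. Of 9 further exporters (Slc30a family), 5 were tested, with 1 higher and 1 lower in TLR4-WT and 0 higher and 1 lower in each mutant. The typical gene of all tested changed by -0.28, -0.36 and -0.26 on the log2 scale in TLR4-WT, TLR4-K730R and TLR4-K810R. Slc30a5, which loads zinc into the secretory pathway, fell in all 3 genotypes, from 11.4 ± 1.28 to 5.86 ± 0.69 FPKM in TLR4-WT (log2 difference -0.86, SE 0.14, limma adjusted p = 8.82e-05). Its fall in TLR4-K810R (-0.67, SE 0.14) no longer passed under median-of-ratios scaling. Slc30a7, an exporter into the Golgi, rose in TLR4-WT from 4.29 ± 0.49 to 7.66 ± 1.32 FPKM (0.70, SE 0.14, limma adjusted p = 0.000525). Its differences in TLR4-K730R and TLR4-K810R were 0.02 and 0.08, and the difference of the responses did not pass in either (limma adjusted p = 0.453 and 0.170). The median difference over the tested exporters was 0.16, -0.27 and -0.41, against the typical gene values above.

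Of 13 further importers (Slc39a family), 9 were tested, and 3 passed in each genotype, 1 upwards and 2 downwards, which is close to the share of all genes that passed. Slc39a1, a plasma membrane zinc importer and the most abundant of those that passed, rose from 80.2 ± 4.301 to 110 ± 2.04 FPKM in TLR4-WT (0.46, SE 0.08, limma adjusted p = 0.000185). The LPS levels in the mutants, 112 ± 2.23 FPKM for TLR4-K730R and 111 ± 0.32 for TLR4-K810R, were close to that. Slc39a10, another plasma membrane importer, fell from 4.84 ± 1.33 to 1.67 ± 0.38 FPKM in TLR4-WT, with log2 differences of -1.11, -1.13 and -1.14 (SE 0.17 each) in the 3 genotypes. Slc39a11 fell from 19.5 ± 2.81 to 6.66 ± 0.72 FPKM in TLR4-WT, with differences of -1.42, -1.52 and -1.07 (SE 0.18 each). These 3 importers passed in every genotype under median-of-ratios scaling as well. The median over the tested importers was -0.37, -0.20 and -0.44. Slc39a8, which encodes the close relative ZIP8, reached at most 1.58 FPKM and was not tested.

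**Figure D4:**
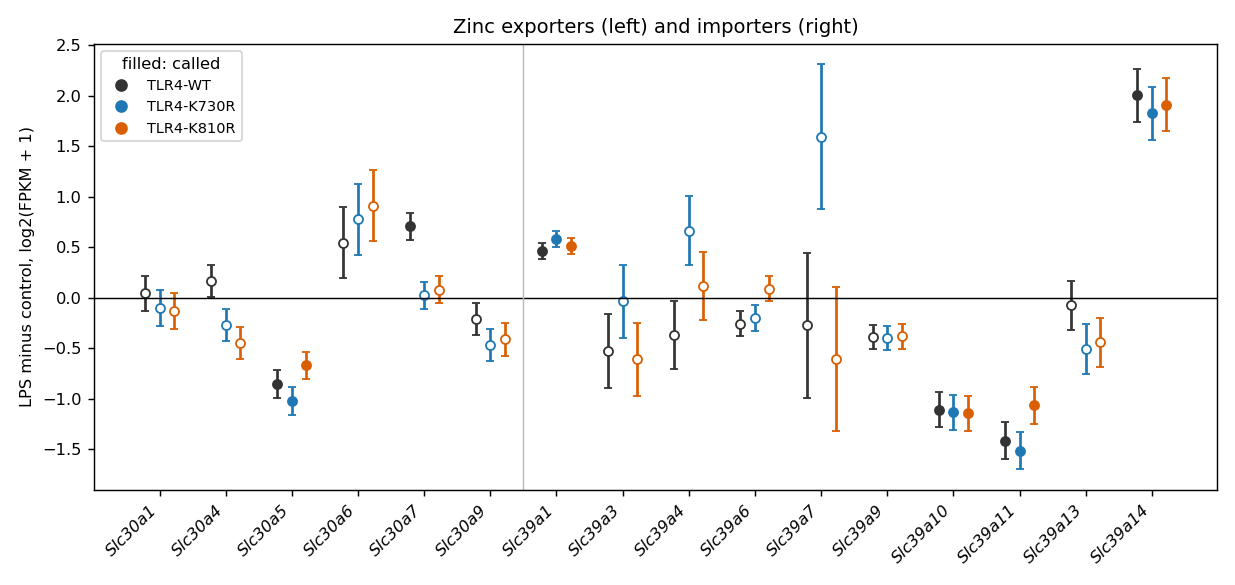
LPS minus control difference on the log2(FPKM + 1) scale for the tested zinc exporters (Slc30a, left of the grey line) and importers (Slc39a, right) in the 3 genotypes, with standard errors; filled points passed an adjusted p of 0.01 in limma. Slc30a5, Slc39a10 and Slc39a11 lie below 0 and Slc39a1 and Slc39a14 above 0 in each genotype.

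Other metal-binding proteins were followed in a list of 7 with Mt3, Mt4 and zinc-binding or related S100 proteins, of which 6 were tested. Mt3, a further metallothionein, fell in TLR4-K730R from 17.7 ± 5.98 to 6.05 ± 2.81 FPKM (-1.43, SE 0.29, limma adjusted p = 0.000757). In TLR4-WT it had 9.25 ± 1.01 FPKM in control and 4.16 ± 0.48 with LPS (limma adjusted p = 0.0107), and in TLR4-K810R 8.01 ± 2.62 and 5.05 ± 1.11 FPKM (-0.55, SE 0.29, limma adjusted p = 0.144). S100a8, a subunit of the zinc-sequestering protein calprotectin, rose in each genotype, from 29.0 ± 5.94 to 207 ± 28.3 FPKM in TLR4-WT, with log2 differences of 2.81, 2.43 and 2.17 (SE 0.16 each). S100a1 and S100a4 fell in each genotype, by -1.31 and -1.33 in TLR4-WT. The median over the 6 was -0.90, -1.46 and -0.76. S100a9, the partner of S100a8 in calprotectin, was listed at no more than 2.23 FPKM in any library. Of the 53 tested genes of all 7 lists, it alone passed in any of the 6 comparisons between genotypes or responses, with 1.42 (SE 0.22, limma adjusted p = 0.0085) when the LPS libraries of TLR4-K810R were set against those of TLR4-WT. Over all genes the share that passed was between 0 and 1.58% in these 6 comparisons and 0.134% in that one, and nothing is read from a single call among 53 genes. S100a9 is abundant in neutrophils. The 6 neutrophil markers summed to 16.4 to 19.6 FPKM in those TLR4-K810R libraries and 9.04 to 13.6 FPKM in those of TLR4-WT. Mmp8 was the most abundant of them, while Ly6g, Ngp and Cxcr2 stayed under 1 FPKM in all libraries. The part of neutrophils was not tested.

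Copper handling genes passed in both directions with LPS. Of 10 in the list 8 were tested, with 2 higher in each genotype and 3, 5 and 3 lower in TLR4-WT, TLR4-K730R and TLR4-K810R. Under median-of-ratios scaling the lower counts were 3, 3 and 1, as Atp7a and Atox1 no longer passed in TLR4-K730R, nor Atp7a and Ccs in TLR4-K810R. The copper importer gene Slc31a1 rose from 21.96 ± 2.54 to 74.8 ± 9.26 FPKM in TLR4-WT, and its relative Slc31a2 from 47.1 ± 3.41 to 190 ± 4.46 FPKM. The log2 differences of Slc31a2 were 1.99, 2.10 and 2.20 (SE 0.10 each). Sod1, the copper and zinc superoxide dismutase, and Ccs, its copper chaperone, fell in each genotype, by -0.92 and -1.06 in TLR4-WT. The median over the 8 was -0.67, -0.68 and -0.43.

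The inducers that metallothioneins are known to share with other genes were followed in 3 lists. Of 12 metal and oxidative stress genes 10 were tested, and 3, 4 and 3 were higher and 1, 0 and 0 lower with LPS in TLR4-WT, TLR4-K730R and TLR4-K810R. Under median-of-ratios scaling 4 were higher and 0 lower in each genotype, as Gclc no longer passed in TLR4-WT while Dnajb1 passed in TLR4-WT and TLR4-K810R. Hmox1, heme oxygenase, rose from 865 ± 77.7 to 1990.4 ± 384 FPKM in TLR4-WT, and Slc7a11, the cystine importer, from 5.65 ± 0.90 to 62.2 ± 15.7 FPKM. Selenow, which encodes a small selenoprotein, rose from 79.5 ± 7.82 to 238 ± 27.2 FPKM in TLR4-WT, with log2 differences of 1.56, 1.68 and 1.45 (SE 0.13 each). Slc7a11 had log2 differences of 3.23, 3.53 and 4.06 (SE 0.25 each), in the reverse order to Mt2, and none of its differences between genotypes or responses passed. The median over the 10 was 0.89, 0.30 and 0.48.

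Of 10 genes induced by glucocorticoids 8 were tested, and they split. Nfkbia, Ddit4 and Dusp1 rose and Tsc22d3 and Klf9 fell in all 3 genotypes, and Sgk1, the sixth by size there, rose in TLR4-K810R. Nfkbia, the inhibitor of NF-κB, had log2 differences of 2.60, 2.37 and 2.67 (SE 0.10 each), and Tsc22d3, which encodes GILZ, had -2.09, -2.13 and -1.79 (SE 0.19 each). Under median-of-ratios scaling 4, 4 and 5 of the list were higher and 2 lower in each genotype. The median was 0.32, 0.18 and 0.58.

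Of 10 STAT3 target genes 8 were tested, and 5, 4 and 4 were higher and 1 lower in each genotype. Under median-of-ratios scaling 7, 6 and 5 were higher and 1 lower. Il1rn, which encodes the antagonist of the interleukin-1 receptor, had the widest differences, 4.68, 4.55 and 4.38 (SE 0.27 each). Bcl3, Pim1 and Il4ra also rose in each genotype, and Fos fell, by -1.48, -1.34 and -0.80 (SE 0.10 each). The median over the 8 was 1.36, 1.03 and 0.90. Junb had no value, and Socs3, listed at 0 to 39.7 FPKM, did not reach 1 FPKM in 3 libraries and was not tested.

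The files also list the exons at which transcripts start, end and differ, so the make-up of each gene could be compared. Of 10 alternative exons or starts in the 5 genes, 7 had a summed level of at least 1 FPKM in every library and were tested by an exact permutation of the control and LPS labels within genotype (8000 arrangements, two-sided). None passed, with adjusted p between 0.833 and 0.934. For Mt2 the upstream of its first exons held 97.5 to 100% of the level in every library, in control and LPS groups alike. Slc39a14 has a pair of alternative exons of 170 bases each, which are the fifth exon of different protein-coding transcripts, at chr14:70315664-70315833 and chr14:70313601-70313770. The upstream exon held 32.4% of the summed level in control and 28.3% with LPS (exact permutation p = 0.712). Its share varied widely, from 0 to 36.5% in TLR4-WT control and from 42.5 to 100% in TLR4-K730R control, where Slc39a14 was at most 4.80 FPKM.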

How the data were processed

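Peritoneal macrophages were profiled by RNA-seq in 18 libraries, grouped by the genotype and treatment of the labels. The authors deposited FPKM values per library in 80071 to 90401 rows, each a transcript event of 1 of 20 kinds with an Ensembl gene number. Aligner and counting program are not given in the sources used here. The submitters' notes list hg18, but the coordinates are those of mouse GRCm38, to which genes were matched in GENCODE M21. FPKM is relative to length and to the fragments of a library, so a few strongly changed genes shift all others, and it carries no depth.

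FPKM was summed over the first exons and over the last exons of a gene, and the higher sum was its level, counting events on its strand and within its span, which left out 6.24% of this FPKM (at most 0.292% for the 5 genes). An event without a row counted as 0. Differences were fitted with limma 3.58.1 (R 4.3.3, trended eBayes) on log2(FPKM + 1) over 9707 genes and all 6 groups, with Benjamini-Hochberg adjustment and a threshold of 0.01. The fit was tested on simulated data. For Mtf1 and Slc39a14 first- and last-exon sums differed by up to 2.16-fold and 2.15-fold. The 5 genes and all lists were chosen with earlier results of these data known. From each list at most 5 genes per comparison that passed were named, by size, besides genes needed to state a count, and the 5 genes with the highest Pearson r with Mt2 and Slc30a1.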

Additional observations from a re-analysis of the deposited data

Results flagged for a closer look

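The estimated LPS response of Mt2 was lower in TLR4-K810R than in TLR4-WT, by -2.30 on the log2(FPKM + 1) scale (SE 0.36), with all 3 control libraries above and all 3 LPS libraries below those of TLR4-WT. The interaction term of limma brought it here, but Mt2 was chosen with this value known, so the value is a description and its call supports nothing. The call lay close to the threshold. It was lost under median-of-ratios scaling, where the difference was as large, at -2.34 (SE 0.37), and without library 3 of TLR4-K810R control, at -1.98 (SE 0.31). The epithelial sums and the mesothelium and fibroblast sums were also above those of TLR4-WT in every TLR4-K810R control library. Their part was not tested.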

How the results depend on the processing

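The number of the 5 genes that passed for LPS did not leave 1.5 times its value in any genotype under the alternatives run. For the response of TLR4-K810R against that of TLR4-WT, the count of 1 (Mt2) became 0 with no filter on low values, with median-of-ratios scaling, with no intensity trend, with the groups of the comparison alone, and with first-exon sums alone. Adding the replicate block also gave 0, and the block changed no other count. In these 6 fits 0.0618 to 0.114% of all genes passed. Correlations of the deviations between libraries of the same replicate number lay between -0.32 and 0.092 in 21 pairs. Low values cannot tell whether replicate numbers marked shared animals or batches, which is not given in the sources used here. Leaving out 1 library at a time, this count ranged from 0 to 1. For TLR4-K810R against TLR4-WT in control the count of 1 became 0 with the groups of the comparison alone (0.278% of all genes) and 2 at an adjusted p below 0.05 (3.52%), and it ranged from 0 to 1 without 1 library. The cause was not tested. Of 870 log2 differences recomputed for the 5 genes, 32 changed sign, and none of those exceeded 0.26 in size as reported. Of 20 recomputed exon shares 4 changed sign. With the libraries of 1 replicate number left out at a time, the LPS minus control difference of the upstream Slc39a14 exon ranged from -9.15 to 2.76 percentage points, that of the kept Slc39a14 exon from -6.58 to 16.6, that of the most abundant Slc39a14 start from -2.37 to 3.12, and that of the kept Mtf1 exon from -1.12 to 1.15. With last-exon sums alone, the Slc39a14 response to LPS was 2.27 in TLR4-K730R and 1.53 in TLR4-K810R. By Spearman's rho, 2 of the 5 genes nearest to Mt2 and 3 of those nearest to Slc30a1 were shared. Leaving out library 3 of TLR4-K730R with LPS in the within-group correlations was chosen after seeing the data. Without read counts, the depth behind low levels is unknown, and partial rows limit Mtf1 and Slc39a14.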
